A study of Mus musculus with 17 samples.

Results

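Genes of mast cells, basophils and Fc receptors were followed across 5 progenitor fractions sorted from the bone marrow of adult mice. The set was named by 9 gene symbols: Cpa3, Ms4a2, Fcer1a, Fcer1g, Fcgr3, Fcgr2b, Hdc, Gzmb and Il1rl1. Of these, 8 had at least 1 probe set that carried the symbol alone, 14 probe sets in all, among 18193 named genes on the array. Il1rl1, which encodes the receptor for interleukin-33, was not listed in the probe annotation used here, and its level was not analysed here.

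RNA of each fraction was labelled and hybridised to Affymetrix expression arrays, 17 in all, from mice of 10 to 14 weeks. CLP, the common lymphoid progenitors, were gated Lin-Sca1lowKitlowIL7r+Flk2+ (3 arrays). The other 4 fractions were Lin-Sca1-Kit+. MkP, the megakaryocyte progenitors, were Itga2b+Slamf1+ (3 arrays). The remaining fractions were Itga2b-FcgRlow. Of these, preCFUE, an early erythroid stage, were Slamf1+Enghigh (3 arrays), preMegE, from which both megakaryocytes and red cells derive, were Slamf1+Englow (5 arrays), and preGM, directed to granulocytes and monocytes, were Slamf1-Englow (3 arrays). FcgR in these gates is the low-affinity IgG receptor protein, to which both Fcgr3 and Fcgr2b contribute, so preCFUE, preMegE and preGM were selected on products of measured genes, while the titles give no such gate for MkP or CLP. The titles name no strain, genotype or treatment, and a free-text field names another gate, which was not used. Whether arrays of 1 fraction stem from different mice or sorts is not stated, so p-values measure only how far these arrays differ, which may be technical.

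The titles give only the gates, and the fraction names used here come from general knowledge of such gates. The fractions carried markers of the cell types named, of which Il7r, Flt3 (Flk2) and Itga2b were themselves part of the gates. The intensities of 4 lymphoid genes (Il7r, Flt3, Dntt and Rag1) summed to 9547 to 17022 in CLP and to 2304 to 3555 in preGM, with lower sums elsewhere. Megakaryocyte genes (Pf4, Itga2b, Gp9 and Vwf) summed to 10234 to 11229.5 in MkP, and granulocyte and monocyte genes (Mpo, Elane, Prtn3 and Cebpa) to 12237 to 12389.7 in preGM. Erythroid genes (Klf1, Car1 and Epor) summed to 10939 to 11473 in preCFUE and 5889.5 to 9126 in preMegE. The mean correlation of CLP replicate 2 was 0.962 with preGM arrays and 0.948 with the other CLP arrays, so calls in CLP against preGM are also given without it. No other array was closer to another fraction. As a measure of RNA quality, the log2 ratio of the Gapdh 3-prime to 5-prime probe sets was 3.005 to 5.12 in CLP, 3.38 to 4.14 in MkP, 2.85 to 4.09 in preCFUE, 2.87 to 4.21 in preMegE and 2.72 to 3.94 in preGM, and its part in the results was not tested.

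Mast cells and basophils are granulated cells that bind IgE through the receptor FcεRI and release histamine, proteases and lipid mediators when antigen crosslinks it. The receptor has an IgE-binding α chain (Fcer1a), a signal-amplifying β chain (Ms4a2) and a pair of signalling γ chains (Fcer1g). The γ chain also serves activating IgG receptors, among them that of Fcgr3, in cells that lack FcεRI, whereas Fcgr2b encodes the inhibitory IgG receptor. Both cell types arise from bone marrow progenitors, and GATA factors act in their formation in mice.

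Cpa3, Ms4a2 and Fcer1a are textbook mast cell genes, and the 250 bases before their starts are shown with those before Fcer1g, so that the 3 FcεRI chains can be read beside Cpa3. All are from RefSeq (GRCm38.p6), minus strand, 5′ to 3′. Capitals mark the GATA core (AGATAA or TGATAA) and the PU.1 core (GAGGAA), each searched on both strands.
Cpa3, chr3:20242182-20242431: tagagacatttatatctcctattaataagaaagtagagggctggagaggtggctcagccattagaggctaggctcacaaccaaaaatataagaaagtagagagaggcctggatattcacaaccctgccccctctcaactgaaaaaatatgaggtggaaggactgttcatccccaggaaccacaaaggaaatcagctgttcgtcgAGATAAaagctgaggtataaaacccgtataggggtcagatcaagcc
Ms4a2, chr19:11623720-11623969: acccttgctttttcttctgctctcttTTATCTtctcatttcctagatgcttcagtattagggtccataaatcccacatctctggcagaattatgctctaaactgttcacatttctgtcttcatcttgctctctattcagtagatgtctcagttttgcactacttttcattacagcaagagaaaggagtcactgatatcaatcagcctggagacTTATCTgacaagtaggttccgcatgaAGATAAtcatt
Fcer1a, chr1:173227230-173227479: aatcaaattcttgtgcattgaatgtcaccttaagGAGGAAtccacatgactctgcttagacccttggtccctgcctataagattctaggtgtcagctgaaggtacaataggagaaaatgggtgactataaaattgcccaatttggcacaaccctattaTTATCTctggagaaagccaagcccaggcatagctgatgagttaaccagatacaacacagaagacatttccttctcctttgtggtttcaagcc
Fcer1g, chr1:171234350-171234599: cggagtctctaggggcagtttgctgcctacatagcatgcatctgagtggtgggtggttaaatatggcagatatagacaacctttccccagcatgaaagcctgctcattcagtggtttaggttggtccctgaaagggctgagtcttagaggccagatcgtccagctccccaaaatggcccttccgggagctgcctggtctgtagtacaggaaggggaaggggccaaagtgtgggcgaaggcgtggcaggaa
The Cpa3 window held 1 GATA core, the Ms4a2 window 3, the Fcer1a window 1 with 1 PU.1 core, and the Fcer1g window 0 of either. Of the other windows, those of Fcgr2b, Hdc and Gzmb held 0 of either, the 2 of Fcgr3 held 0 GATA cores and 1 PU.1 core each, and the 2 of Il1rl1 held 2 and 1 GATA cores and 0 PU.1 cores. The GATA core stood in 16.6% and the PU.1 core in 23.3% of all 32851 windows of this length. A match of letters is a description, not a binding site.

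Cpa3, which encodes the carboxypeptidase stored in mast cell granules, was high in preMegE and preGM and low in the other fractions. This pattern was known when the gene was chosen, so its levels are a description with no test. Intensities were 196, 121, 214, 154 and 165 in the 5 preMegE arrays and 167, 161 and 131 in the 3 preGM arrays. They were 38.3, 21.1 and 29.6 in MkP, 24.3, 23.8 and 29.6 in preCFUE, and 14.6, 15.3 and 11.5 in CLP. Every preMegE and preGM array stood above every array of the other fractions, and preMegE overlapped with preGM. MkP overlapped with preCFUE, and all CLP arrays were below both. The log2 fold change was -2.02 ± 0.16 in MkP against preMegE and -2.13 ± 0.16 in preCFUE against preMegE (SE). These are on the log2(intensity + 16) scale, on which all fold changes here are given and which understates changes of dim genes. In sorted fractions such as these, fewer cells with a transcript and less of it per cell cannot be told apart.

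Over the 17 arrays, the genes whose log2 level correlated best with that of Cpa3 were Gbp2 (r = 0.952), Cd1d2 (0.938), Rfx5 (0.933), Ikzf2 (0.926) and Itgb7 (0.920), out of 6817 genes with a mean of at least 100 in some fraction. Arrays of a fraction share its gate, so these points are not independent. Itgb7, the β7 integrin chain, was 131 ± 19.3 in preMegE and 119 ± 4.85 in preGM, against 45.01 ± 5.33 in MkP, 61.9 ± 25.2 in preCFUE and 42.2 ± 9.25 in CLP (SD, n = 5 for preMegE and n = 3 for the others).

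**Figure D1:**
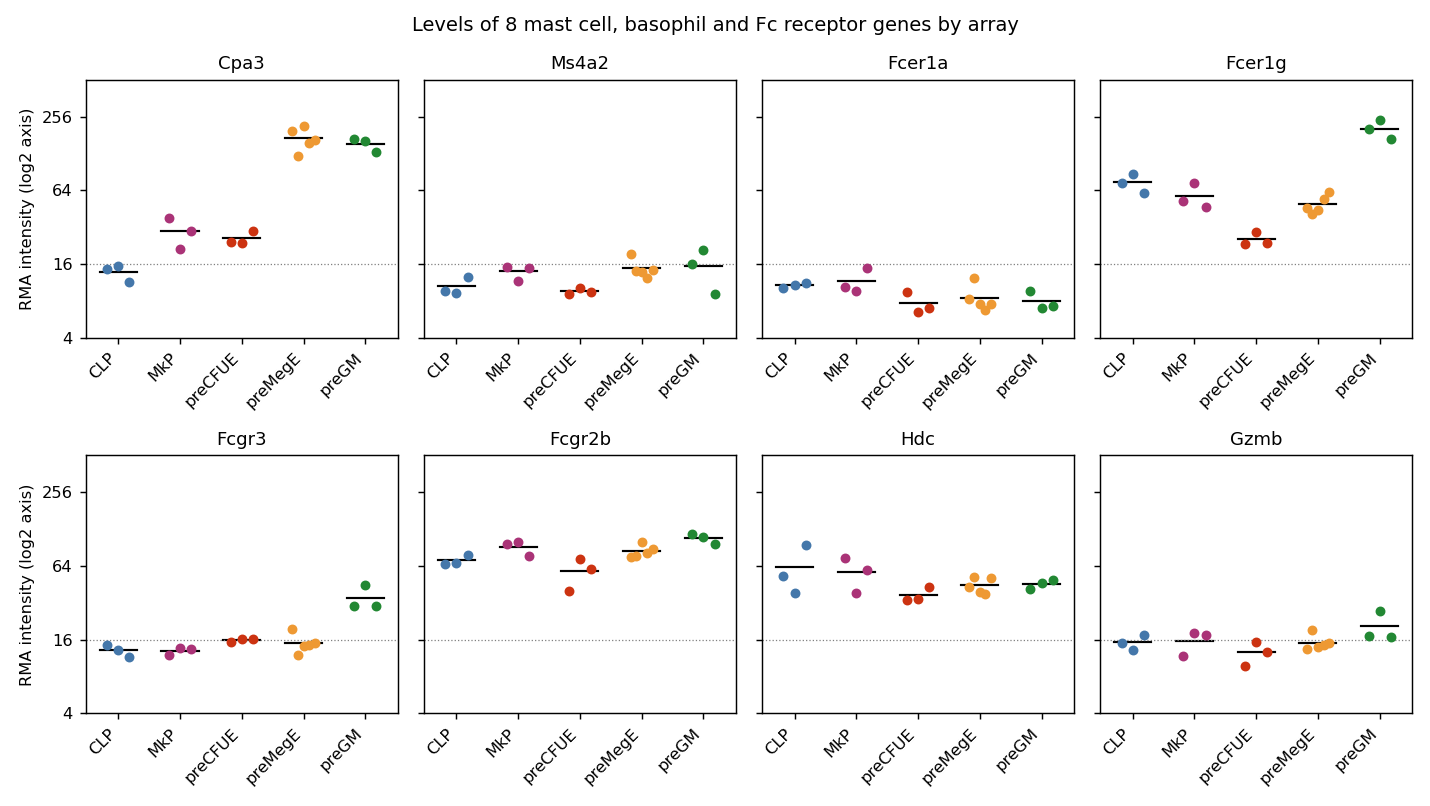
RMA intensity (log2 axis) of the 8 measured genes on every array, by fraction. Points are arrays, black lines are means and the dotted line marks 16, the offset added before logs. Cpa3 is above 120 in all preMegE and preGM arrays and lower in all others, Fcer1g is highest in preGM, and Ms4a2, Fcer1a and Gzmb lie near or under the dotted line in most arrays.

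Fcer1a, the IgE-binding α chain of FcεRI, read 10.2, 10.8 and 11.1 in CLP, 10.5, 9.56 and 14.8 in MkP, 9.48, 6.46 and 6.97 in preCFUE, 8.22, 12.3, 7.53, 6.74 and 7.57 in preMegE, and 9.63, 6.998 and 7.29 in preGM. Its mean log2 level was at percentile 11.1 of all genes. Such values do not show absence, since the files hold no detection call.

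Ms4a2, the β chain, was measured on the brighter of its 2 probe sets. The lowest and highest arrays were 9.25 and 12.6 in CLP, 11.7 and 15.2 in MkP, 9.02 and 10.2 in preCFUE, 12.3 and 19.2 in preMegE, and 9.05 and 20.98 in preGM. In preCFUE against preMegE the log2 fold change was -0.26 ± 0.11, which did not pass in limma (adjusted p = 0.182). The other probe set averaged 10.1 ± 1.94 in MkP and less in the other fractions. Neither Ms4a2 nor Fcer1a passed the moderated F test over the 5 fractions (adjusted p = 0.167 and 0.181), which 34.9% of all genes passed.

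Fcer1g was highest in preGM, where the arrays read 204, 242 and 168. The preMegE arrays read 46.1, 40.7, 43.8, 53.8 and 61.8. CLP read 74.1, 87.6 and 61.4, MkP 52.00, 74.1 and 46.7, and preCFUE 23.5, 29.4 and 23.6. All preGM arrays were above all others and all preCFUE arrays below all others, while CLP, MkP and preMegE overlapped. The F test gave adjusted p = 5.17e-07. The genes closest to Fcer1g were Gcnt2 (r = 0.951), Csf2rb (0.948), Ckap4 (0.947), Myo1f (0.947) and B4galt6 (0.946). Csf2rb, the common β chain of the receptors for several myeloid cytokines, was 345 ± 58.97 in preGM and 16.8 ± 1.80 in preCFUE (SD, n = 3 each).

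Fcgr3, the activating IgG receptor that signals through the γ chain, was low and stood out in preGM. The arrays read 30.2, 44.5 and 30.3 in preGM and 19.6, 12.02, 14.2, 14.4 and 15.2 in preMegE. They read 11.9, 13.7 and 13.4 in MkP, 15.3, 16.2 and 16.1 in preCFUE, and 14.6, 13.2 and 11.5 in CLP. All preGM arrays were above all others, although preGM, preMegE and preCFUE shared the FcgRlow gate. The F test gave adjusted p = 9.77e-05.

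Fcgr2b, the inhibitory receptor, had a level in every fraction on its brightest probe set, 1435476_a_at. It read 116, 110.2 and 96.1 in preGM, 76.3, 76.6, 101, 82.5 and 87.5 in preMegE, and 96.6, 101 and 77.1 in MkP. It read 39.7, 73.7 and 60.3 in preCFUE and 66.5, 67.2 and 79.4 in CLP. The preCFUE arrays were below all preMegE, MkP and preGM arrays and overlapped with CLP, and preMegE overlapped with MkP and with preGM. The F test gave adjusted p = 0.00903. The genes closest to it were Mbnl2 (r = 0.860), Mapkapk3 (0.841), Lyz2 (0.823), Ifitm1 (0.821) and Fes (0.817).

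The 5 Fcgr2b probe sets gave different sizes for the same comparison. Tested with all 45037 probe sets, preMegE was lower than preGM on 1435477_s_at (log2 fold change -0.88 ± 0.20, adjusted p = 0.0152) and on 1455332_x_at (-0.63 ± 0.15, adjusted p = 0.0177). Of all probe sets, 5.21% passed in this comparison. The difference did not pass on the brightest probe set (-0.30 ± 0.13, adjusted p = 0.372), on 1451941_a_at (-0.35 ± 0.14, adjusted p = 0.257) or on 1447622_at (0.28 ± 0.21, adjusted p = 0.764). The endings _s_at and _x_at mark probes that can match more than 1 transcript, so these signals are uncertain as to the gene. Over the 17 arrays, the correlation with the Fcgr3 probe set was 0.601 for 1435477_s_at, 0.678 for 1455332_x_at and 0.447 for the brightest probe set.

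Hdc, which encodes the enzyme that makes histamine, gave different patterns on its 2 probe sets. On 1451796_s_at, the brighter one on average, the fractions overlapped. It read 53.3, 38.6 and 95.4 in CLP, 73.9, 38.3 and 59.3 in MkP, 33.8, 34.6 and 43.1 in preCFUE, 43.05, 52.1, 38.9, 37.5 and 50.9 in preMegE, and 41.4, 46.7 and 49.1 in preGM. The F test on it gave adjusted p = 0.314.

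The other Hdc probe set, 1454713_s_at, read 99.9, 101 and 44.04 in preGM. It read 10.7, 12.9, 29.5, 12.6 and 13.3 in preMegE and averaged 9.24 ± 0.344 in CLP, 9.48 ± 2.09 in MkP and 10.1 ± 0.331 in preCFUE. All preGM arrays were above all others. Tested with all probe sets, it was lower in preMegE than in preGM (log2 fold change -1.58 ± 0.20, adjusted p = 0.000143) and lower in CLP than in preGM (-1.89 ± 0.22, adjusted p = 0.000135), where 5.21% and 10.8% of probe sets passed. It did not pass in MkP or preCFUE against preMegE (adjusted p = 0.452 and 0.748), where 6.28% and 5.34% of probe sets passed. Without CLP replicate 2 the change in CLP against preGM was -1.88 (adjusted p = 0.000423). The 2 probe sets correlated at r = -0.115 over the 17 arrays, and which of them reports the Hdc transcript was not tested. Both end in _s_at, so both signals are uncertain as to the gene. With the mean of both in place of the brighter one, Hdc passed in preMegE against preGM (-0.81, adjusted p = 0.00101) and, with its direction turned, in CLP against preGM (-0.80, adjusted p = 0.00350).

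**Figure D2:**
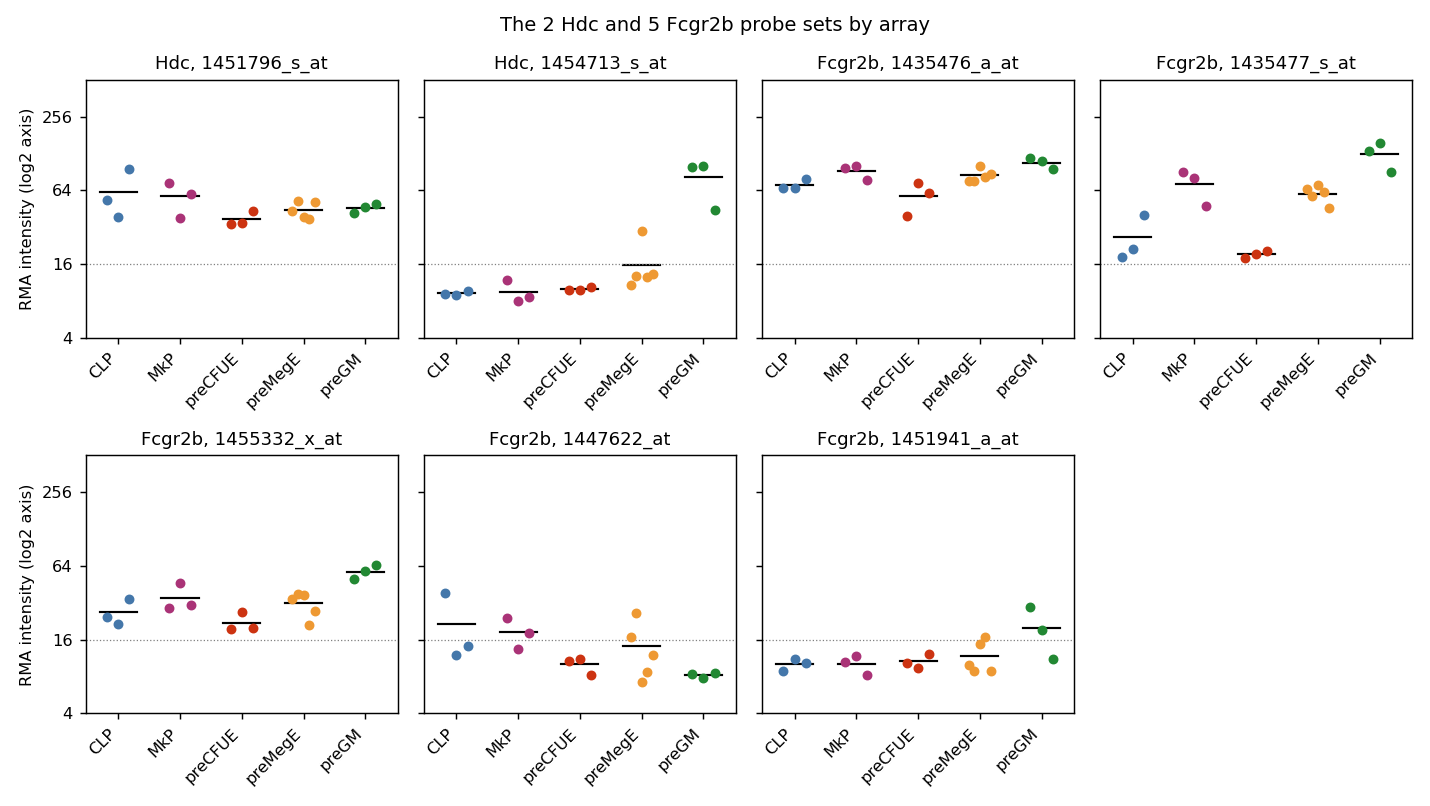
RMA intensity (log2 axis) of the 2 Hdc and 5 Fcgr2b probe sets on every array, by fraction, with means as black lines and 16 as a dotted line. Hdc overlaps between fractions on 1451796_s_at and is highest in preGM on 1454713_s_at, and Fcgr2b has its highest mean in preGM on 4 of its 5 probe sets.

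Gzmb, the granzyme that cytotoxic lymphocytes and some mast cells store, was dim throughout. Its lowest and highest arrays were 13.2 and 17.5 in CLP, 11.8 and 18.03 in MkP, 9.82 and 15.5 in preCFUE, 13.4 and 19.3 in preMegE, and 16.9 and 27.7 in preGM. The preGM arrays overlapped with those of every fraction but preCFUE, and the F test gave adjusted p = 0.230. The 7 measured NK and T cell markers summed to 325 to 436 in CLP, 434 to 574 in MkP, 146 to 164 in preCFUE, 507 to 675 in preMegE and 372 to 499 in preGM. Among them Nkg7, a granule protein of cytotoxic cells, differed most between fractions, at 240.2 ± 82.04 in CLP, 352 ± 87.9 in MkP, 39.4 ± 6.74 in preCFUE, 458 ± 71.1 in preMegE and 318 ± 82.1 in preGM (SD). The other 6 averaged at most 55.04, which was Cd3e in MkP.

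The comparisons that follow set neighbouring fractions against each other. The 7 genes other than Cpa3 were tested in limma together with all 18193 genes. A gene passed where its adjusted p was under 0.05.

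In preMegE against preGM, the split between megakaryocyte or erythroid and granulocyte or monocyte potential, Fcer1g and Fcgr3 fell and 5 of the 7 genes did not pass. Of all genes, 8.69% passed, 2.81% higher and 5.88% lower in preMegE. Fcer1g was 49.3 ± 8.53 in preMegE and 204.6 ± 37.4 in preGM (SD, n = 5 and 3), a log2 fold change of -1.75 ± 0.15 (SE, adjusted p = 1.07e-06). Fcgr3 was 15.1 ± 2.78 in preMegE and 34.99 ± 8.21 in preGM (-0.71 ± 0.092, adjusted p = 9.80e-05). Fcgr2b (-0.30 ± 0.14, adjusted p = 0.291) and Gzmb (-0.22 ± 0.11, adjusted p = 0.339) did not pass. Fcgr2b passed with the mean over its probe sets (-0.38, adjusted p = 0.00971) and with array weights (-0.36, adjusted p = 0.0134). Cpa3 was 170.1 ± 36.4 in preMegE and 153 ± 19.4 in preGM. The median log2 fold change was -0.22 over the 7 genes and 0.013 over all genes.

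Mature neutrophils carry Fcgr3, and their markers varied between arrays of a fraction. The 5 measured ones (Camp, Ltf, Ngp, S100a8 and S100a9) summed to 87.00 to 1526 in preMegE and 203 to 1504 in preGM. Over preMegE replicates 1 to 5 the sums were 687, 87.00, 677, 419 and 1526. Fcgr3 was 15.2 in replicate 5, the highest of these sums. Over preGM replicates 1 to 3 the sums were 517, 1504 and 203, Fcgr3 was 30.2, 44.5 and 30.3, and Fcer1g was 204, 242 and 168. Replicate 2, with the highest sum in preGM, also had the highest Fcgr3 and Fcer1g of all arrays. In preMegE the highest Fcgr3 was 19.6, in replicate 1. Over MkP replicates 1 to 3 the sums were 1354, 108 and 487, and Fcgr3 was 11.9, 13.7 and 13.4. Of 6 macrophage markers, 6 were under 32 on average in preMegE and 5 in preGM, where Cd68 was 46.7 ± 4.56 (against 9.71 ± 1.54 in preMegE). The sums of the 6 were 68.05 to 78.7 in preMegE and 105 to 116 in preGM, and the part of either marker list in the Fc receptor values was not tested.

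In MkP against preMegE, the step to the megakaryocyte branch, 0 of the 7 genes passed in limma and 0 had an unadjusted p under 0.05, while 10.3% of all genes passed, 3.98% higher and 6.37% lower in MkP. With limma's array weights, too, 0 of the 7 passed, where 1349 of all genes passed higher and 2242 lower. Hdc (0.25 ± 0.20, adjusted p = 0.474), Fcer1a (0.17 ± 0.082, adjusted p = 0.204) and Fcer1g (0.16 ± 0.15, adjusted p = 0.536) differed most. Fcer1g was 57.6 ± 14.6 in MkP and 49.3 ± 8.53 in preMegE, with a 95% interval of the log2 difference from -0.15 to 0.48. Cpa3 was 29.7 ± 8.60 in MkP and 170.1 ± 36.4 in preMegE. The median log2 fold change was 0.093 over the 7 genes and 0.0096 over all genes.

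In preCFUE against preMegE, the step to the erythroid branch, Fcer1g and Fcgr2b fell and 5 of the 7 did not pass, where 8.69% of all genes passed, 4.75% higher and 3.94% lower in preCFUE. Fcer1g was 25.5 ± 3.35 in preCFUE and 49.3 ± 8.53 in preMegE (-0.65 ± 0.15, adjusted p = 0.0113). Fcgr2b was 57.9 ± 17.1 in preCFUE and 84.7 ± 10.1 in preMegE (-0.47 ± 0.14, adjusted p = 0.0461). On its probe set 1435477_s_at the means were 19.3 ± 1.29 in preCFUE and 60.1 ± 9.27 in preMegE (-1.10 ± 0.20, adjusted p = 0.00397), where 5.34% of probe sets passed. It was the 1 of the 5 Fcgr2b probe sets that passed in that test. The adjusted p was 0.0634 for 1435476_a_at (-0.47), 0.339 for 1455332_x_at (-0.32), 0.911 for 1447622_at (-0.18) and 0.985 for 1451941_a_at (-0.056). The median log2 fold change was -0.18 over the 7 genes and 0.0062 over all genes. The Fcer1g call was lost without preCFUE replicate 1 or 3 (adjusted p = 0.0578 and 0.0577). The Fcgr2b call was lost without any 1 of the 5 preMegE arrays (adjusted p from 0.0544 to 0.0912) and without preCFUE replicate 1 (-0.28, adjusted p = 0.271) or 3 (adjusted p = 0.0968), and under quantile normalization, median centring and an offset of 1 (adjusted p = 0.0829, 0.0564 and 0.0525).

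In MkP against preCFUE, Fcer1g and Fcgr2b were higher in MkP and 5 of the 7 did not pass, where 16.2% of all genes passed, 5.51% higher and 10.7% lower in MkP. Fcer1g was 57.6 ± 14.6 in MkP and 25.5 ± 3.35 in preCFUE (0.81 ± 0.16, adjusted p = 0.00373). Fcgr2b was 91.5 ± 12.7 in MkP and 57.9 ± 17.1 in preCFUE (0.56 ± 0.15, adjusted p = 0.0212). Ms4a2 (0.23 ± 0.12, adjusted p = 0.235) and Fcer1a (0.22 ± 0.092, adjusted p = 0.123) did not pass, and averaged only 13.9 and 11.6 in MkP. The median log2 fold change was 0.23 over the 7 genes and 0.0052 over all genes. The Fcgr2b call was lost without MkP replicate 1 or 2 or preCFUE replicate 1 (adjusted p = 0.0729, 0.0691 and 0.0974). Tested with all probe sets, where 10.1% passed, Fcgr2b changed by 1.29 on 1435477_s_at (adjusted p = 0.00185) and 0.56 on 1435476_a_at (0.0292). The change did not pass on 1455332_x_at (0.42, adjusted p = 0.131), 1447622_at (0.40, 0.357) or 1451941_a_at (-0.025, 0.952). The comparisons of MkP, preCFUE and preMegE share arrays and are not independent.

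In CLP against preGM, Fcer1g, Fcgr3 and Fcgr2b fell and 4 of the 7 did not pass, where 18.3% of all genes passed, 5.07% higher and 13.3% lower in CLP. Fcer1g was 74.4 ± 13.1 in CLP and 204.6 ± 37.4 in preGM (-1.28 ± 0.16, adjusted p = 0.000147). Fcgr3 was 13.1 ± 1.56 in CLP and 34.99 ± 8.21 in preGM (-0.80 ± 0.10, adjusted p = 0.000155). Fcgr2b was 71.04 ± 7.29 in CLP and 108 ± 10.4 in preGM (-0.51 ± 0.15, adjusted p = 0.0354). Cpa3 was 13.8 ± 2.03 in CLP and 153 ± 19.4 in preGM. The median log2 fold change was -0.23 over the 7 genes and 0.0053 over all genes. B cells carry Fcgr2b, and 5 measured B cell markers summed to 565 to 1202 in CLP and 159 to 171 in preGM. Of these markers Blnk differed most, at 691 ± 282 in CLP and 48.2 ± 11.8 in preGM (SD). Cd79a was 71.7 ± 12.8 in CLP and 15.6 ± 0.633 in preGM. Cd79b was similar, at 96.5 ± 71.8 in CLP and 85.4 ± 8.79 in preGM. Ms4a1 and Cr2 averaged under 16 in both fractions. The part of these markers in the values was not tested.

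Without CLP replicate 2, the changes in CLP against preGM were -1.39 for Fcer1g (adjusted p = 0.000149) and -0.80 for Fcgr3 (adjusted p = 0.000390). Fcgr2b then did not pass (-0.47, adjusted p = 0.0513), and 6032 of all genes passed, against 3337 with it. The Fcgr2b call was also lost without CLP replicate 1 or 3 (adjusted p = 0.104 and 0.0570), without preGM replicate 1 or 2 (0.125 and 0.102), and under quantile normalization (-0.17, adjusted p = 0.533). Tested with all probe sets and arrays, where 10.8% passed, Fcgr2b changed by -1.75 on 1435477_s_at (adjusted p = 0.000239) and -0.79 on 1455332_x_at (0.00911). The change was -0.51 on 1435476_a_at (0.0466), -0.43 on 1451941_a_at (0.0848) and 0.56 on 1447622_at (0.136). Without CLP replicate 2, 1435477_s_at and 1455332_x_at still passed (0.000730 and 0.0147), and 1435476_a_at did not (0.0641).

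**Figure D3:**
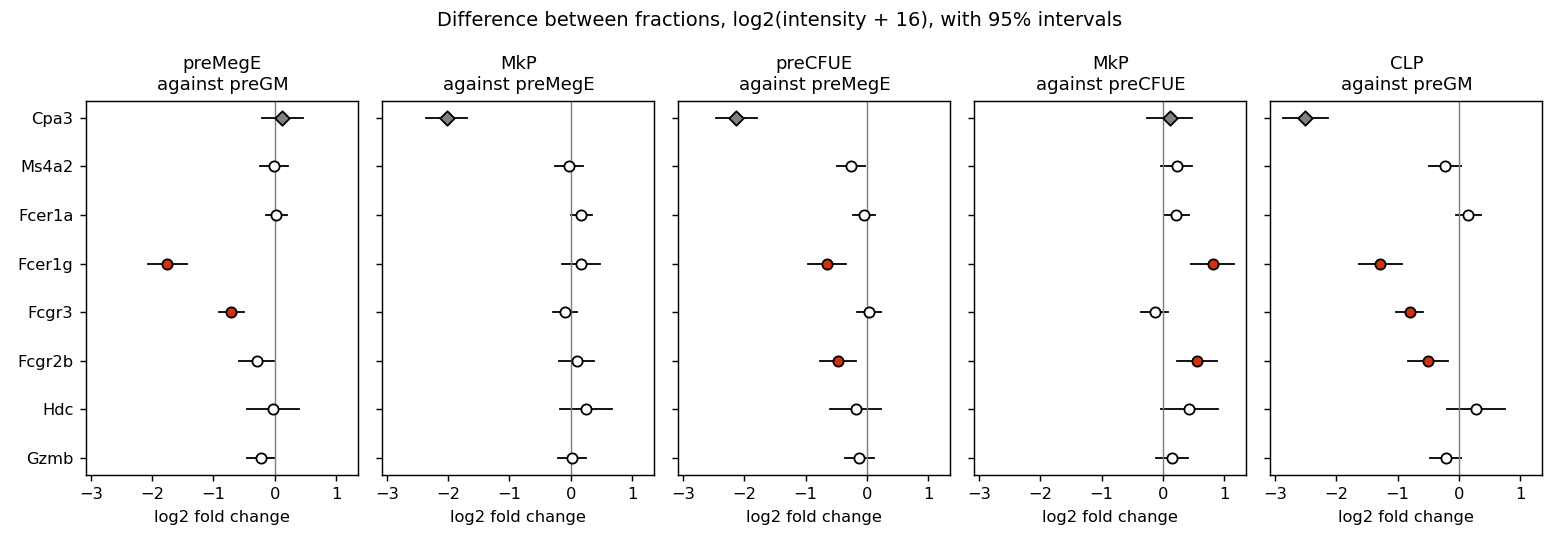
Log2 fold change of each gene (log2(intensity + 16) scale) in the 5 comparisons, first-named fraction over second, with 95% intervals as lines. Red points passed at adjusted p under 0.05, white points did not, and grey diamonds are Cpa3, which was not tested. The Cpa3 intervals are drawn as a description only, since its pattern was known when it was chosen. Fcer1g lies below 0 in preMegE and in CLP against preGM, and 0 tested genes passed in MkP against preMegE.

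Other mast cell and basophil genes changed in both directions. Of 30 listed, 24 were measured. In preMegE against preGM, 2 rose, 4 fell and 18 did not pass (8.69% of all genes passed), with a list median of 0.02 against 0.013 over all genes. Csf2rb fell by 3.16 on the log2 scale (adjusted p = 8.85e-10), at 24.3 ± 3.85 in preMegE and 345 ± 58.97 in preGM. Alox5ap, the partner of 5-lipoxygenase in leukotriene synthesis, also fell (-2.17 ± 0.31, adjusted p = 0.000213). Gata2, a transcription factor of stem, megakaryocyte and mast cells, rose (1751 ± 189 in preMegE and 335 ± 89.5 in preGM, 2.35 ± 0.20, adjusted p = 1.21e-06).

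In MkP against preMegE, 4 of the 24 rose and 4 fell (10.3% of all genes passed), with a list median of 0.032 against 0.0096 over all genes. Kit, the stem cell factor receptor that mast cells keep and that is in the gate of every fraction, fell by 1.79 on the log2 scale. Slc18a2, which loads histamine and other amines into vesicles, fell by 1.40, and Alox5, 5-lipoxygenase, rose by 1.23. In preCFUE against preMegE, 0 rose and 4 fell (8.69% of all genes passed), with a list median of -0.034. Slc18a2 was 9.02 ± 3.79 in preCFUE and 185 ± 54.1 in preMegE, and the log2 fold changes of Gata2 and Alox5ap were -2.47 and -2.31.

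In MkP against preCFUE, 6 of the 24 were higher and 2 lower (16.2% of all genes passed), with a list median of 0.10. Gata2 was 1105 ± 154 in MkP and 309 ± 88.5 in preCFUE (1.81 ± 0.22, adjusted p = 5.97e-05), and Alox5ap and Slc18a2 were higher by 3.23 and 1.57 (adjusted p = 1.41e-05 and 0.00102), whereas the Cpa3 arrays of these fractions overlapped. In CLP against preGM, 2 were higher and 7 lower (18.3% of all genes passed), with a list median of 0.037. Gata2, Kit and Csf2rb fell, with log2 fold changes of -2.38, -2.04 and -1.80. CLP were gated Kitlow and preGM Kit+, so the sort itself selected on Kit, and its fall here is no independent result. When CLP replicate 2 was left out, 3 were higher and 8 lower, where 6032 of all genes passed, against 3337 with it. The 3 changes were then -2.21, -2.38 and -1.93.

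Proteases of mature mast cells stayed dim. Of 6 measured markers of mature mast cells and basophils (Tpsb2, Tpsab1, Cma1, Mcpt4, Mcpt8 and Cd200r3), all 6 were under 32 on average in CLP, MkP, preCFUE and preMegE. Their sum was 96.97 to 115 in CLP, 76.9 to 90.7 in MkP, 82.9 to 98.6 in preCFUE, 70.5 to 119 in preMegE and 139.9 to 195 in preGM. In preGM 5 were under 32, and the exception was Mcpt8, a basophil protease, which was 21.8 ± 7.48 in preMegE and 104 ± 33.4 in preGM. It fell in preMegE (-1.65 ± 0.16, adjusted p = 6.39e-06) and in CLP (-1.32 ± 0.18, adjusted p = 0.000302), both against preGM. Without CLP replicate 2 the change in CLP was -1.33 (adjusted p = 0.000629). Mitf, a mast cell transcription factor, fell in the same comparisons (log2 fold changes -1.16 and -1.48). Mcpt8 and Mitf were singled out after their values were seen. All 5 measured eosinophil markers were under 32 on average in every fraction.

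**Figure D4:**
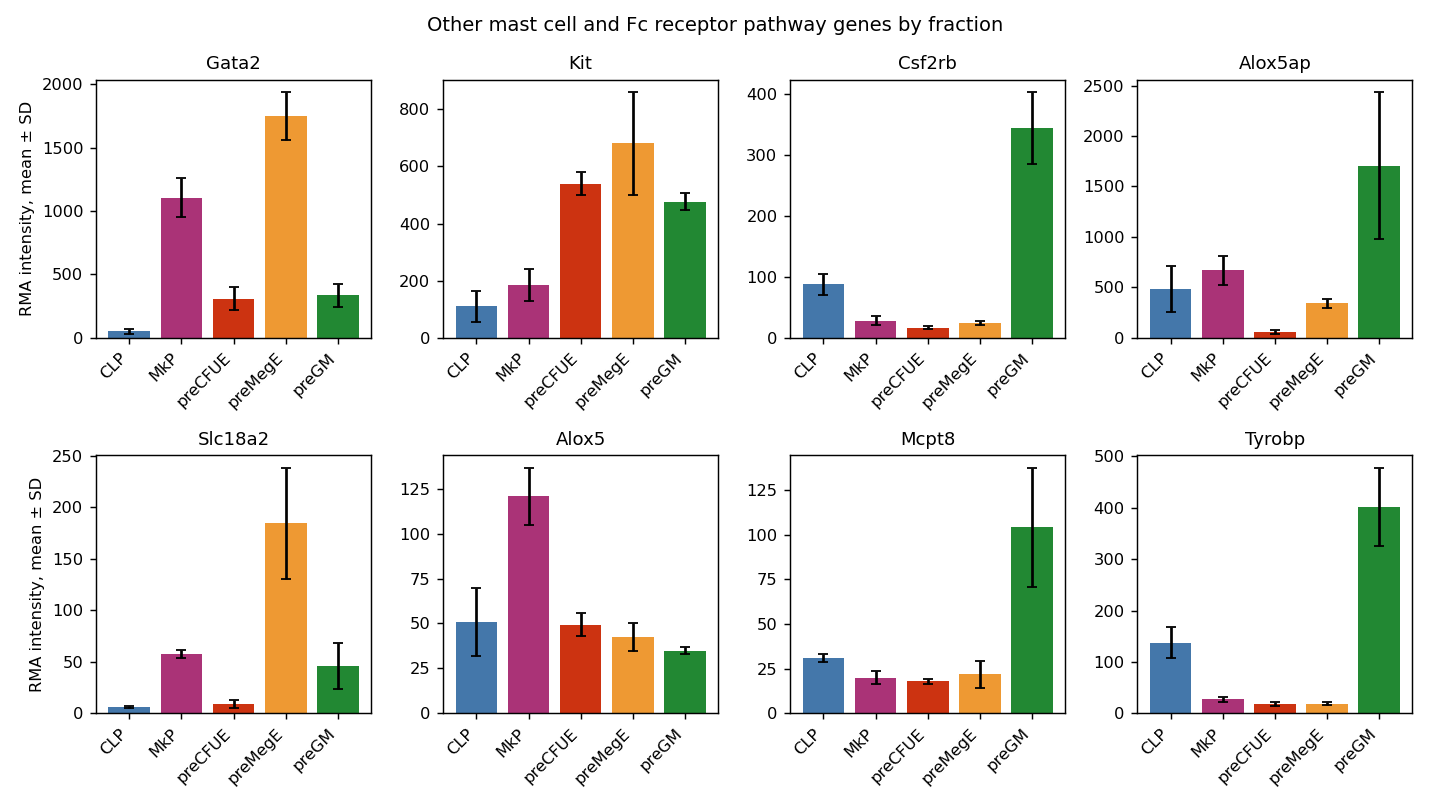
RMA intensity of 8 genes from the pathway lists by fraction (bars, mean; whiskers, SD; n = 5 for preMegE and n = 3 for the others), on linear axes from 0 scaled per gene. Gata2 and Slc18a2 have their highest means in preMegE, and Csf2rb, Mcpt8 and Tyrobp in preGM.

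Of 13 measured genes of other Fc receptors and ITAM adaptors, 0 rose, 3 fell and 10 did not pass in preMegE against preGM, where 8.69% of all genes passed. Tyrobp, the adaptor DAP12 of myeloid and NK cells, was 18.8 ± 2.60 in preMegE and 402 ± 76.2 in preGM (-3.57 ± 0.15, adjusted p = 7.36e-10). Hcst, the adaptor DAP10, and Fcgrt, the neonatal Fc receptor, fell too, with log2 fold changes of -0.73 and -0.32. The Fcgrt call was lost under quantile normalization, median centring and an offset of 1. In MkP against preMegE, 1 rose and 1 fell (10.3% of all genes passed). Trim21, an antibody receptor of the cytosol, fell by 1.48 (adjusted p = 8.31e-05), and Hcst rose by 0.57 (adjusted p = 0.0105). Trim21 alone passed in preCFUE against preMegE (-0.65, adjusted p = 0.0399) and in MkP against preCFUE (-0.84, adjusted p = 0.0118), where 8.69% and 16.2% of all genes passed. The call in preCFUE was lost under median centring and that in MkP against preCFUE under quantile normalization. In CLP against preGM, 2 rose, 2 fell and 9 did not pass (18.3% of all genes passed). Tyrobp fell by 1.45, and Cd247, the T cell receptor ζ chain, and Fcrl1, an Fc receptor-like protein of B cells, rose by 1.10 and 0.78. With CLP replicate 2 left out, 3 rose and 3 fell, where 6032 of all genes passed, against 3337 with it. The 3 changes were then -1.55, 0.95 and 0.81. Fcgr1, the high-affinity IgG receptor, and Fcgr4, another activating one, passed in 0 of the 5 comparisons, with fraction means of at most 19.04 for Fcgr1 and 14.5 for Fcgr4.

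Of 15 measured signalling genes below these receptors, 0 rose and 6 fell in preCFUE against preMegE (8.69% of all genes passed), with a list median of -0.41 against 0.0062 over all genes. Lcp2, the adaptor SLP-76, fell by 1.98, and the kinase genes Syk and Fyn fell, with log2 fold changes of -1.54 and -1.24. In MkP against preCFUE, 6 were higher and 0 lower (16.2% of all genes passed), with a list median of 0.53. Plcg2, the phospholipase Cγ2, was 928 ± 148 in MkP and 112 ± 9.20 in preCFUE (2.87 ± 0.13, adjusted p = 2.39e-09), and Syk and Fyn were higher by 2.17 and 1.64. In preMegE against preGM, 1 rose and 5 fell (8.69% of all genes passed), with a list median of -0.27. Plcg2, Gab2 and Cbl fell, with log2 fold changes of -2.19, -1.10 and -1.04. Under quantile normalization 2 rose and 2 fell, with the Cbl call lost, where 654 of all genes passed higher and 1008 lower. In MkP against preMegE, Plcg2 and Syk rose by 1.76 and 0.63 and Grb2 fell by 1.26, so that 2 rose and 1 fell (10.3% of all genes passed). Under quantile normalization 5 rose and 1 fell there, where 1083 of all genes passed higher and 867 lower. In CLP against preGM, 4 rose and 2 fell (18.3% of all genes passed). Lcp2 and Gab2, both adaptors, fell, with log2 fold changes of -1.41 and -1.16 (adjusted p = 0.00515 and 0.00422), and Lat, an adaptor in the plasma membrane, rose by 0.78 (adjusted p = 0.00109). Without CLP replicate 2, 5 rose and 5 fell, where 6032 of all genes passed, against 3337 with it. The 3 changes were then -1.58, -1.24 and 0.72. Platelets and lymphocytes use several of these genes as well.

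Of 8 measured interleukin-33 receptor partners and signalling genes, 0 passed in limma in preMegE against preGM (8.69% of all genes passed), with 2 at an unadjusted p under 0.05 and 1, Myd88, under quantile normalization. In MkP against preMegE, 1 passed (10.3% of all genes), and Myd88, the adaptor of this receptor family, rose by 0.93. Sigirr, an inhibitory member of the family, was the 1 gene that passed in preCFUE against preMegE (-0.59, adjusted p = 0.00752, where 8.69% of all genes passed). In MkP against preCFUE, Sigirr was higher (0.66, adjusted p = 0.00494) and Irak2, a kinase of the pathway, lower (-0.51, adjusted p = 0.0414), where 16.2% of all genes passed, and the Irak2 call was lost under quantile normalization. In CLP against preGM, 2 passed (18.3% of all genes). Myd88 fell by 1.12 (adjusted p = 0.0118) and Sigirr rose by 0.61 (adjusted p = 0.0105), and without CLP replicate 2 the changes were -1.48 and 0.48.

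Of 12 granzyme and lytic granule genes, 1 passed in preMegE against preGM and 2 in CLP against preGM, where 8.69% and 18.3% of all genes passed. Ctsc, the protease that activates granzymes, fell in preMegE (log2 fold change -1.27) and in CLP (-1.28), both against preGM, where it was 830.2 ± 77.8. Lamp1, a protein of lysosome membranes, fell in CLP against preGM (-0.76, adjusted p = 0.00360). Without CLP replicate 2, 1 rose and 2 fell, where 6032 of all genes passed, against 3337 with it. The changes were then -1.52 for Ctsc and -0.89 for Lamp1. In limma, 0 of the 12 passed in MkP against preMegE, in preCFUE against preMegE or in MkP against preCFUE, with 2, 0 and 0 at an unadjusted p under 0.05 (10.3%, 8.69% and 16.2% of all genes passed). Under quantile normalization Ctsc and Lamp1 passed, higher in MkP, against both preMegE and preCFUE.

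Of 6 other histamine genes, 3 passed in CLP against preGM, where 18.3% of all genes passed. Hnmt, the histamine-degrading methyltransferase, was lower in CLP than in preGM (-1.20 ± 0.26, adjusted p = 0.00770). Aoc1 and Hrh3 were higher in CLP by 0.38 and 0.34, calls that were lost under quantile normalization and median centring. Leaving out CLP replicate 2, 3 rose and 1 fell, where 6032 of all genes passed, against 3337 with it. The change of Hnmt was then -1.20 (adjusted p = 0.00890). In the other 4 comparisons, 0 of the 6 passed in limma, with 2 at an unadjusted p under 0.05 in preMegE against preGM, 1 in MkP against preMegE and 0 in the others. Of all genes, 8.69% passed in preMegE against preGM, 10.3% in MkP against preMegE, 8.69% in preCFUE against preMegE and 16.2% in MkP against preCFUE.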

How the data were processed

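Cells were sorted directly into lysis buffer and biotin-labelled cRNA was prepared, per the labels' protocols. The authors deposited 1 RMA intensity, on a linear scale, for each probe set and array. RMA is named in the submitters' processing notes, and no version or background setting is stated in the labels. Of 45101 probe sets, 64 controls were left out. The platform annotation gave 34945 of the rest 1 symbol, and the probe set with the highest mean stood for each of 18193 genes. Values were tested as log2(intensity + 16) in limma 3.58.1 (R 4.3.3) with 5 fractions and 17 arrays in 1 fit, 12 residual degrees of freedom and Benjamini-Hochberg adjustment over all genes. The script was tested on simulated data. No filter on low values was set, 47.3% of deposited values were under 16, and precision is limited by how many arrays each fraction has.

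Named were all members, the 3 members of a pathway list with the largest change past the test in a comparison, and the 5 genes closest to each member with a fraction mean of at least 100. The members and lists were chosen with earlier results of these data known. Alternatives covered the offset, scaling, a filter on low values, probe sets per gene, arrays in the fit, the replicate number, array weights and leaving out arrays. Promoter sequences are RefSeq's.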

Additional observations from a re-analysis of the deposited data

Results flagged for a closer look

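In 14 groups of 5 preMegE arrays, 1 per probe set, the gap of the highest or lowest array to the others was checked, and chance flags about 1 in 20 such groups. The Hdc probe set 1454713_s_at read 29.5 in preMegE replicate 3, while the other preMegE arrays read 10.7 to 13.3. Gzmb read 19.3 in preMegE replicate 2, while the other preMegE arrays read 13.4 to 14.9.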

How the results depend on the processing

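Fcer1g and Fcgr3 in preMegE and in CLP against preGM kept their direction and passed when any 1 array was left out. With array weights, 3751 of all genes passed in preMegE against preGM, 3591 in MkP against preMegE, 3017 in preCFUE against preMegE, 4775 in MkP against preCFUE and 6430 in CLP against preGM. With every probe set tested, 2829 passed in MkP against preMegE, 2406 in preCFUE against preMegE and 4529 in MkP against preCFUE, out of more features. With only the 2 fractions compared in the fit, 557 passed in CLP against preGM, from fewer arrays. Leaving out 1 array at a time, 1218 to 1622 passed in preMegE against preGM, 1184 to 2296 in MkP against preMegE, 1056 to 1566 in preCFUE against preMegE, 1782 to 2749 in MkP against preCFUE and 1426 to 6032 in CLP against preGM. Of the 7 members, 2 to 2, 0 to 0, 0 to 2, 1 to 2 and 2 to 4 passed in these comparisons.

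In preMegE against preGM, 4 members passed with array weights, 4 with the mean over probe sets and 1 with the filter on low values, which removes dim members. Of all genes, 564 passed higher and 1079 lower with the mean over probe sets. With the filter 509 and 1012 of the genes kept passed, against 511 and 1070 of all genes in the main setting. In preCFUE against preMegE, 1 passed with an offset of 1, quantile normalization, median centring, every probe set tested or only the 2 fractions compared, and the last also left 1 in MkP against preCFUE. Of all genes in preCFUE against preMegE, 838 passed higher and 774 lower with the offset of 1, 909 and 917 under quantile normalization, and 815 and 632 under median centring. With only the 2 fractions compared, 1223 and 946 passed there, and 1156 and 2431 in MkP against preCFUE. The cause of these changes was not tested.

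The labels do not state whether replicate numbers pair the arrays. Over 30 pairs of equal number, deviations from the fraction means correlated at -0.543 to 0.508, and 11 pairs were over 0.1. Over 84 pairs of unequal number the range was -0.601 to 0.594, and 32 pairs were over 0.1. The medians were -0.046 for equal and 0.030 for unequal numbers. These pairs share arrays and fraction means and are not independent, so they cannot decide whether the numbers pair the arrays. With the replicate block, 968 genes passed in MkP against preMegE, 906 in preCFUE against preMegE and 1778 in CLP against preGM, 1 member passed in preCFUE against preMegE and 1 in MkP against preCFUE, and the Ms4a2 change in preMegE against preGM was 0.029. Of all genes in MkP against preCFUE, 716 passed higher and 1419 lower with this block.

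Signs turned only for values that did not pass in the main setting or were not tested. Under quantile normalization Hdc was at 0.023 in preMegE against preGM and Gzmb at -0.014 in MkP against preMegE, where median centring gave -0.012. With the mean over probe sets, MkP against preMegE gave 0.027 for Ms4a2 and -0.021 for Hdc, and CLP against preGM gave -0.80 for Hdc. With 1 array left out, CLP against preGM ranged from -0.0032 to 0.51 for Hdc. In preMegE against preGM the ranges were -0.17 to 0.11 for Ms4a2, -0.026 to 0.076 for Fcer1a and -0.086 to 0.0081 for Hdc. In MkP against preMegE they were -0.069 to 0.018 for Ms4a2 and -0.030 to 0.12 for Gzmb. Fcer1a in preCFUE against preMegE ranged from -0.10 to 0.0054, and Cpa3 in MkP against preCFUE from -0.022 to 0.25.

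Of the genes that passed, quantile normalization put 55.5% higher in MkP against preMegE (38.5% in the main setting), 52.3% in MkP against preCFUE (34.0%) and 43.1% in CLP against preGM (27.7%). Median centring gave 15.9% and the filter on low values 16.4% in CLP against preGM. With that filter the median of all genes was -0.13 in MkP against preMegE, -0.16 in MkP against preCFUE and -0.30 in CLP against preGM. The settings added for the pathway lists and for the Hdc probe set were chosen after seeing the data. Ms4a2, Fcer1a and Gzmb lie so near the lowest values that differences between fractions may not be measurable.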
